A study of Mus musculus with 24 samples.

Results

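The 7 genes described here carry the core of MHC class II antigen presentation: H2-Aa, H2-Ab1, H2-Eb1, H2-DMa, H2-DMb1, Cd74 and Ciita. They were chosen by symbol from the 23416 uniquely named genes in each of 4 expression tables of mouse left lung lobes, and all 7 were found in every table and passed the filter on low values (3 or more lungs with a normalized count of 1 or higher). The RNA-seq experiment asked how the lung transcriptome differs when the planar cell polarity gene Vangl2, or Ror2, which encodes a WNT5A receptor, is deleted in the lung epithelium. Mutant lungs were Vangl2 f/f; Sox9Cre/+ or Ror2 f/f; Sox9Cre/+, taken at postnatal day 2 (P2) or day 5 (P5), and each of the 4 mutant groups had its own control group labelled WT. With 3 lungs in each of the 8 groups, there were 24 lungs in all. WT is the column header of the controls, whose sample titles read Control(Vangl1/2) or Control(Ror2). The titles do not give the alleles that these controls carried. Cre was expressed from the Sox9 locus, which is active in the distal lung epithelium, so the deletion was aimed at epithelial cells. The paper also names brain, bone and small intestine as sites of Sox9-Cre expression. Deletion in leukocytes was not examined here. The mutants carry a Sox9Cre allele that is not listed for the controls, so the Cre allele and the loss of the target gene cannot be told apart. For the Vangl2 mutants at P5 and the Ror2 mutants at P2, the genotype field names the other floxed gene, and groups here follow the sample titles. Litter, sex and pooling are not given, so p-values measure only the spread between these lungs.

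MHC class II molecules are heterodimers of an alpha and a beta chain that display peptides from endocytosed proteins to CD4+ T cells. In the endoplasmic reticulum they pair with the invariant chain, encoded by Cd74, which is cut away in endosomes before the H2-DM chaperone helps a peptide to replace its last fragment. Transcription of these genes depends on the coactivator CIITA, which is constitutive in B cells and dendritic cells and can be induced by interferon-gamma in many other cells. In lung, alveolar type II epithelial cells also carry class II molecules, so bulk lung RNA mixes several sources. Fewer cells of a type and less RNA per cell cannot be told apart in such samples.

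In RefSeq's GRCm38.p6 gene table, 5 members lie in the MHC region of chromosome 17. H2-DMa is at chr17:34119693-34139101 and H2-DMb1 is at chr17:34153191-34160229. H2-Ab1 is at chr17:34263227-34269418, H2-Aa is at chr17:34282744-34287823 and H2-Eb1 is at chr17:34305867-34316674. Ciita lies on another chromosome, at chr16:10480014-10531064, and Cd74 on a further one.

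Class II promoters are known for an X box and a Y box at a near-fixed spacing, where RFX and NF-Y proteins assemble and CIITA docks. The stretches below, each read 5′ to 3′ on the gene's own strand in GRCm38.p6, are shown because 3 members hold this pair close to the start site; capitals mark the X core letters GNAAC and the Y letters ATTGG.
H2-Aa, chr17:34287859-34287912, minus strand: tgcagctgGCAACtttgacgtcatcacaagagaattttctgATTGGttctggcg
H2-Eb1, chr17:34305768-34305820, plus strand: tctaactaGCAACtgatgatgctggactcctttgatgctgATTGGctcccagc
H2-DMb1, chr17:34153089-34153142, plus strand: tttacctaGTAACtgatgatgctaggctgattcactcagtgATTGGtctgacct

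The X letters began at position -81 and the Y letters at -48 of the H2-Aa start site, 33 bases apart. In H2-Eb1 they began at -91 and -59, 32 bases apart. In H2-DMb1 they began at -94 and -61, 33 bases apart. A search for GNAAC and ATTGG on the same strand, with starts 30 to 36 bases apart and either strand allowed, found the pair in 409 of 32851 RefSeq promoter windows of equal length, or 1.25%. Taken alone, ATTGG was in 37.4% of the windows and GNAAC in 84.8%. The windows of the related chain genes H2-Oa, H2-Ob and H2-Eb2 also held the pair, and neither of the 2 H2-DMa windows nor the H2-DMb2 window did. The H2-DMa windows were chr17:34122582-34122881 and chr17:34125268-34125567, inside the span of the gene. Start sites elsewhere in that span were not searched, so this does not show that H2-DMa lacks the pair. H2-Ab1, Cd74 and Ciita had no window in the table.

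Depth was 16175700 to 21544225 reads on genes in 23 of the lungs. The remaining lung, control 1 of the P5 Ror2 comparison, had 13820885 reads and listed 96.3% of genes on chromosomes 5 to 9 and X at 0. It was treated as missing for genes on those chromosomes, which hold none of the 7. The lung marker Sftpc, encoding surfactant protein C, was at 91779 to 311502 normalized counts in every lung. The targeted genes were lower on average in all 4 mutant groups without passing the test. Vangl2 was at 249, 302 and 281 in P2 controls against 241, 224 and 173 in mutants (log2 difference -0.39, limma adjusted p = 0.241), and at 369, 314 and 292 against 170, 148 and 166 at P5 (-1.0, adjusted p = 0.0604). Ror2 was at 451, 581 and 520 in P2 controls against 479, 349 and 366 in mutants (-0.38, adjusted p = 0.25), and at 526, 368 and 597 against 362, 440 and 521 at P5 (-0.16, adjusted p = 0.692). In the groups whose genotype field names the other gene, Ror2 was at 541, 351 and 273 in the P5 Vangl2 mutants against 611, 478 and 487 in controls (-0.48, adjusted p = 0.348), and Vangl2 was at 208, 251 and 236 in the P2 Ror2 mutants against 270.2, 291 and 245 (-0.21, adjusted p = 0.403). For the titled gene, mutants overlapped their controls in both Ror2 comparisons and in neither Vangl2 comparison, and whole lung also holds non-epithelial cells in which these genes are not deleted.

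Some lungs stood apart from the rest of their table. In the P2 Vangl2 comparison, control 1 had the interferon-gamma targets at a summed 47122 normalized counts, against 18776 to 25038 in the other 5 lungs. In the P5 Vangl2 comparison, mutant 3 had a summed 37501 normalized counts over 13 thymus markers, against 1664 to 2952 in the other 5 lungs; Rag1, the lymphocyte recombinase, was at 8683 there and at 0.916 to 10.1 elsewhere, and Foxn1, which defines thymic epithelium, was at 216 against 0 to 0.916. In the P2 Ror2 comparison, control 3 had the neutrophil markers at 29888 normalized counts against 5713 to 9180 in the others. The thymus list was assembled after these values were seen. The members' results, and most of the medians given for the lists set beside them, are shown with and without these lungs.

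Normalized counts (the authors' reads per gene, scaled lung by lung within a table) were divided by exon length before genes were ranked by level. Exon length was the union of all annotated exons of a gene. It was 3798 bases for H2-Aa, 2568 for H2-Ab1, 3448 for H2-DMa and 1681 for H2-DMb1. Per kilobase of exon, the median over 24 lungs was highest for the invariant chain, Cd74, at 3035 normalized counts. The class II chains followed, with H2-Ab1 at 378, H2-Aa at 334 and H2-Eb1 at 261. The chaperone chains were lower, H2-DMb1 at 147 and H2-DMa at 76.3, and the coactivator Ciita was lowest at 10.7. The order of the neighbours H2-Ab1 and H2-Aa was not tested. H2-Ab1 had the higher group mean per kilobase in every group. These means ran from 107 against 81.5 in P2 Vangl2 mutants to 750 against 494 in P5 Vangl2 mutants. The order of the medians in this pair and in the chaperone pair depends on the exon lengths used. Undivided, the median was 1268 for H2-Aa against 972 for H2-Ab1, and 263 for H2-DMa against 247 for H2-DMb1. Across the lungs H2-Ab1 covered a 17.8-fold range and H2-Aa a 14.4-fold range. The H2-Ab1 range was the widest of the 7 and the H2-DMa range, at 3.65-fold, the narrowest. For 6 of the 7 genes (all but H2-Ab1) the lowest of the 24 lungs was mutant 3 of the P2 Ror2 comparison.

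**Figure D1:**
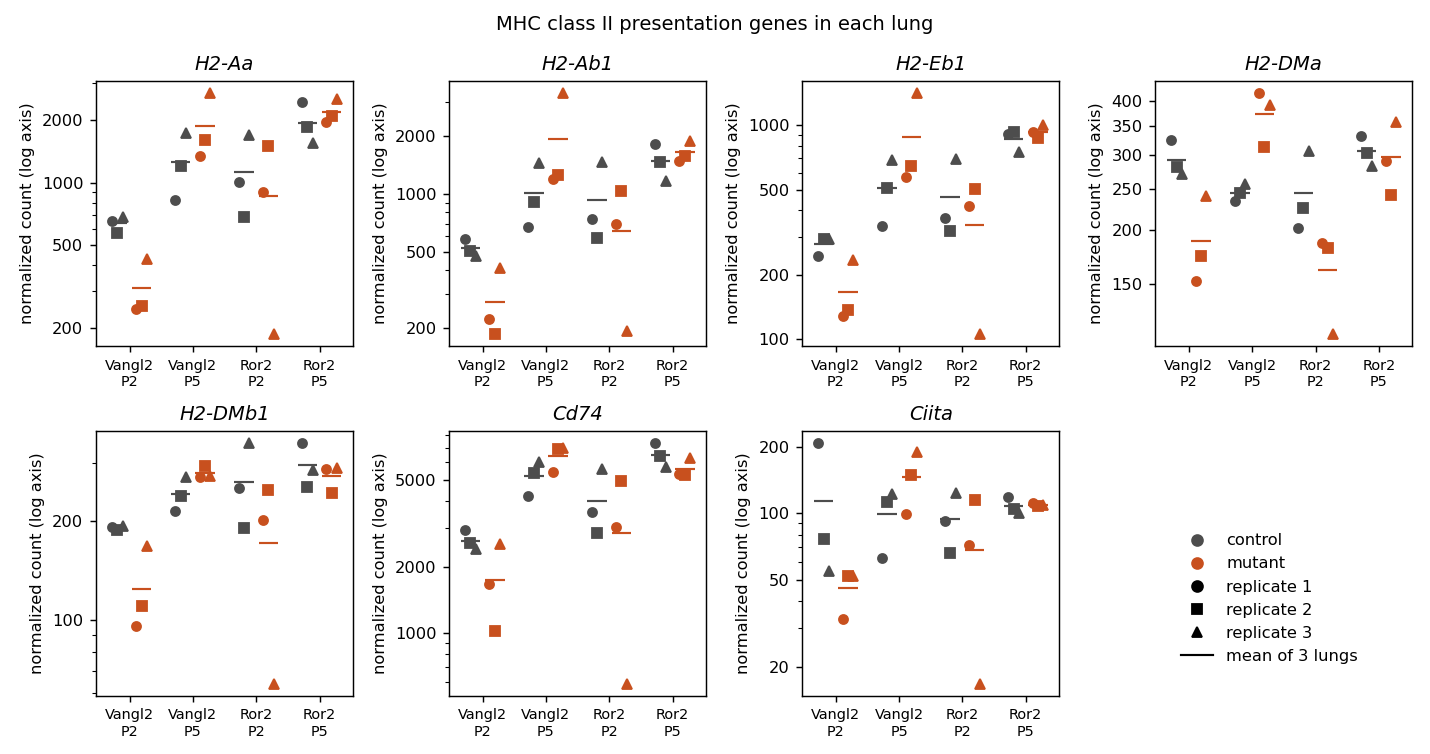
Normalized counts (log axis) of the 7 class II genes in each of the 24 lungs, by comparison and group, with a short line at each group mean. The P2 Vangl2 mutants lie below their controls for every gene except Cd74, where mutant 3 at 2546 lies within the control range of 2410 to 2931, and P2 Ror2 mutant 3 is the lowest of its 6 lungs for all 7 genes.

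At P2, loss of epithelial Vangl2 came with lower class II values. H2-Aa, encoding the I-A alpha chain, fell by 1.08 on the log2 scale (SE 0.22, limma adjusted p = 0.0413), to 0.487 of the control mean, and was the only one of the 7 genes to pass. It was at 652, 574 and 682 normalized counts in controls (636 ± 55.8, SD, n = 3) and at 246, 255 and 428 in mutants (309.5 ± 103, SD, n = 3), so the groups did not overlap. In the same fit 626 of 17444 genes passed (3.59%), 364 of them lower (2.09%) and 262 higher (1.5%) in mutants.

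The other class II chains moved beside it without passing. H2-Ab1, the I-A beta chain, was at 581, 505 and 476 in controls and at 223, 187 and 414 in mutants (log2 difference -1.0, SE 0.28, limma adjusted p = 0.0925). H2-Eb1, the I-E beta chain, was at 244, 295 and 294 against 129, 137 and 234 (-0.78, SE 0.25, adjusted p = 0.121). In both genes every mutant lay below every control, and mutant 3 was the mutant nearest to them. H2-Ea-ps, the gene for the I-E alpha chain, which is a pseudogene in this reference strain, was at 0 in 23 lungs and at 0.933 in the remaining lung (chosen after its values were seen).

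The DM chaperone showed the same order. H2-DMa was at 325, 281 and 270.1 in controls and at 152, 174 and 240.4 in mutants (log2 difference -0.65, SE 0.20, limma adjusted p = 0.117). H2-DMb1 was at 192, 188 and 193 against 96.1, 110.1 and 168 (-0.65, SE 0.23, adjusted p = 0.155). The groups of neither gene overlapped. H2-DMb2, a close copy of H2-DMb1, was at 19.0, 31.3 and 30.6 against 24.8, 17.7 and 17.3, and how reads that match both copies were counted is not given in the sources used here.

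The invariant chain and the coactivator were more uneven among lungs. Cd74, at chr18:60803849-60812652, was at 2931, 2564 and 2410 in controls and at 1669, 1026 and 2546 in mutants (log2 difference -0.68, SE 0.29, limma adjusted p = 0.212), so mutant 3 lay within the control range. Ciita was at 209.6, 76.8 and 54.6 against 33.1, 52.1 and 51.9 (-1.08, SE 0.48, adjusted p = 0.234). Its groups were apart only narrowly, and without control 1 its log2 difference was -0.52.

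Of the 7 genes, 7 had a difference below 0, with a median of -0.78, where 49.9% of all genes tested lay below 0 with a median near 0. All 3 mutant lungs were below all 3 controls for 6 genes, an order held by 14.9% of all genes tested. The 7 genes vary together between lungs (median Pearson r 0.82 over their 21 pairs), so these counts do not rest on independent genes. The exact two-sided permutation test of each gene gave 0.1 for those 6, the smallest p that 3 against 3 lungs allow, so that test cannot pass 0.05 in any of the 4 comparisons. The H2-Aa call was lost when any of the other 5 lungs was left out, at a log2 difference of -1.15 to -0.94, and held without mutant 3, in which case 6 genes passed (all except Ciita) and 2333 genes passed in all. Without control 1, 0 members and 122 genes passed, and the members' median was -0.65.

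Other genes of the class II pathway lay on both sides of 0 at P2. Among 20 further pathway genes, 1 rose and 0 fell, with 9 below 0 and a median log2 difference of 0.12. Ctsl, encoding the lysosomal protease cathepsin L, rose from 2600.5, 2796 and 3049.6 normalized counts in controls to 5022, 4141 and 3752 in mutants (log2 difference 0.60, limma adjusted p = 0.0457). Ctss, encoding cathepsin S, which trims the invariant chain, was at 1885, 1633 and 1313 against 1975, 2172 and 2371 (0.44, adjusted p = 0.131). In all, 6 of the 20 had every mutant above every control, an order held by 14.6% of all genes, and they are proteases and the thiol reductase Ifi30 rather than class II chains. Rfx5, a subunit of the X box binding factor, was at 614, 621 and 582 in controls and at 434, 485 and 655 in mutants, which overlap. H2-Ob, the beta chain of the DM inhibitor, was at 30.5, 34.1 and 39.3 against 22.7, 29.5 and 29.5 (chosen after its values were seen, as was Ctss). Without control 1, 0 of the 20 passed, with a median log2 difference of 0.11.

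Class I presentation genes and interferon-gamma targets, which share inducers with class II, gave 0 calls of 18 and 0 of 21 tested at P2 (medians -0.19 and -0.52). With control 1 left out these medians were 0.01 and 0.09. B2m, the class I light chain, was at 11756 in control 1 against 7214 and 6273. H2-K1, a class I heavy chain, was at 2469, 2237 and 1689 in controls and 2383, 2080.0 and 2475 in mutants. In control 1 the class II chains were thus within or close to the range of the other controls while Ciita was far above it; the part of control 1's interferon values in the Ciita difference was not tested.

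Markers of cell types that carry class II were examined beside these values. B cell markers had 9 of 9 tested genes below 0 (median -0.38, 0 called), with summed levels of 609.8 to 916 in controls and 566 to 761 in mutants. Without control 1 their median was -0.62, with 8 of 9 below 0, 3 of them with every mutant below every control, and 0 called. Such an order is easier to reach with a lung left out, and its share over all genes was not computed there. Ms4a1, encoding CD20, was at 44.2, 88.2 and 95.8 against 31.0, 43.3 and 67.2, and Cd79a, of the B cell receptor, at 60.0, 83.5 and 119 against 58.9, 45.2 and 99.8. Dendritic cell markers had a median of -0.01 over 12 genes (0.04 over 11 without control 1) with 0 called, and their summed level was 6526 to 7088 in controls and 4452 to 7938 in mutants. Itgax, encoding CD11c, was at 314, 332 and 341 against 266, 230.1 and 331, and Flt3, a dendritic cell growth factor receptor, at 12.6, 13.3 and 18.2 against 28.9, 15.7 and 9.17. Fscn1, encoding the actin bundler fascin, made up most of that sum at 2021 to 5545, while the dendritic cell receptor genes Xcr1 and Cd209a were near 0, at 0.948 to 6.11 and at 0 to 4.74, Cd209a being at 0 in 1 control and 2 mutants (all chosen after their values were seen). The sums of both lists overlapped between groups, and their part in the class II difference was not tested.

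Some markers of other leukocytes and of epithelium rose beside the lower class II values. Neutrophil markers rose for 8 of 9 genes (median 1.43), with summed levels of 3855 to 5926 in controls and 11449 to 14668 in mutants. For example, S100a8 rose from 904, 546 and 849.5 to 1818, 1812 and 2923 (limma adjusted p = 0.0319). Without control 1 only 1 of the 9 passed, although the median was 1.37. Macrophage and monocyte markers rose for 1 of 15 (C1qa, a complement subunit, from 467, 444 and 413 to 677, 584 and 741, adjusted p = 0.0498; list sum 6045 to 7233 against 8465 to 11107). The pan-leukocyte gene Ptprc, encoding CD45, was at 766, 777 and 759 in controls and at 575, 803 and 1069.5 in mutants (log2 difference 0.04, adjusted p = 0.92), and 0 of 7 pan-leukocyte markers passed (median 0.25, and 0.28 without control 1). Alveolar type II markers rose for 3 of 12 (Sftpa1, Sftpd and Slc34a2), alveolar type I markers for 1 of 9 (Hopx), and erythroid markers fell for 1 of 4 (Alas2). Without control 1 these counts were 0 of 15 for macrophage and monocyte, 1 of 12 for alveolar type II, 0 of 9 for alveolar type I and 1 of 4 for erythroid markers, while the differences were about as large. The macrophage and monocyte median was then 0.52, against 0.33 with all lungs, and the alveolar type I median 0.53, against 0.45. C1qa was at 0.63 against 0.59 and Hopx at 0.80 against 0.75 on the log2 scale. T and NK cell (11 genes) and endothelial (9 genes) markers gave 0 calls.

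Set against Ptprc within each lung, H2-Ab1 was at 0.628 to 0.759 of the Ptprc count in the P2 controls and at 0.233 to 0.388 in the Vangl2 mutants, a difference of -1.05 on the log2 scale (exact two-sided permutation p = 0.1, the smallest possible, 16 ratio tests in all). In the other 3 comparisons this ratio overlapped between groups.

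**Figure D2:**
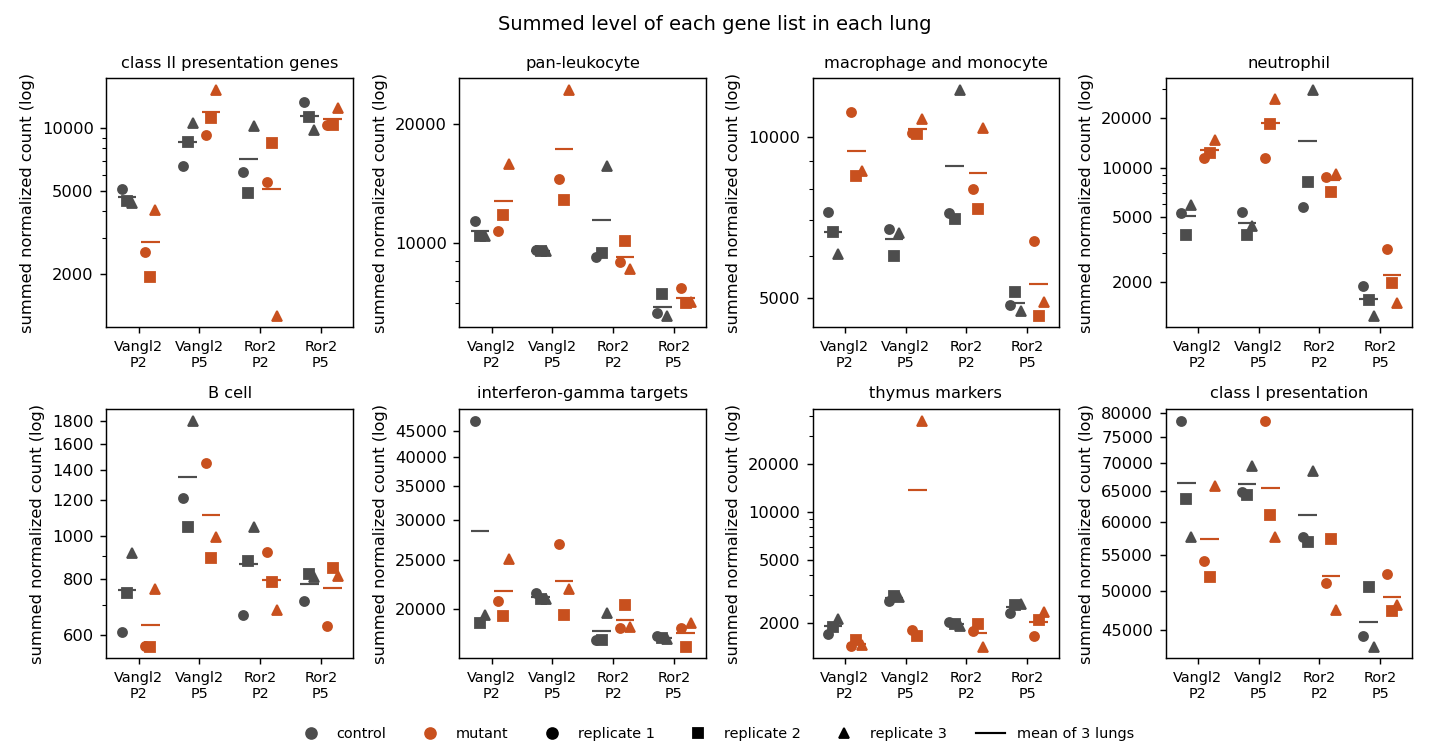
Summed normalized counts in each lung for the class II genes and for the gene lists set beside them, by comparison and group. In the P2 Vangl2 mutants the class II sum is 1940 to 4082 against 4380 to 5136 in controls, while the neutrophil sum is 11449 to 14668 against 3855 to 5926.

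At P5 the Vangl2 mutants had class II values above those of their controls on average, and no gene of the 7 passed the test. The median log2 difference was 0.58, and 7 of 7 genes were above 0, where 49.7% of all genes tested were below 0. The 7 genes vary together between lungs, so they are not independent here either. In this comparison 98 of 17406 genes passed (0.563%), 93 of them higher in mutants (0.534%).

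H2-Aa was at 828, 1195 and 1730 in controls and at 1341, 1597 and 2691 in mutants (log2 difference 0.58, SE 0.32, limma adjusted p = 0.372). H2-Ab1 was at 669, 904 and 1439 against 1190, 1251 and 3335 (0.84, SE 0.42, adjusted p = 0.331). H2-Eb1 was at 338, 511 and 685 against 574, 645 and 1410 (0.71, SE 0.37, adjusted p = 0.348). The chain genes overlapped between groups, control 1 being the lowest of the 6 lungs and mutant 3 the highest for all 3 of them.

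H2-DMa was the only member of the 7 with all mutants above all controls at P5. A count of 1 in 7 is close to the 13.2% of all genes in that order. It was at 234, 245 and 256 in controls and at 418, 312 and 391 in mutants (log2 difference 0.60, SE 0.17, limma adjusted p = 0.137). Its partner H2-DMb1 was at 215, 239 and 273 against 272, 295 and 275 (0.22, SE 0.17, adjusted p = 0.541). Cd74 was at 4225, 5341 and 6035 against 5401, 6925 and 6955 (0.31, SE 0.18, adjusted p = 0.407), and Ciita at 63.0, 113 and 122 against 99.0, 149 and 191 (0.56, SE 0.35, adjusted p = 0.427). These groups overlapped, with control 1 again the lowest lung for all 7 genes.

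Lungs with the same number deviated together in this table. In 21 of 21 pairings of a member with a lung number, the mutant was above the control of that number. These are 7 genes that vary together in 3 pairs of lungs, so the 21 are not independent. The share of all genes in this order was not computed. The pairing by number was itself found in these data. With the replicate number as a block, H2-Aa, H2-Ab1 and H2-Eb1 passed (adjusted p = 0.0256, 0.0254 and 0.037) beside 8.95% of all genes. With the block but without the pair that holds mutant 3, H2-Aa and H2-Ab1 passed (adjusted p = 0.0285 and 0.0216) and H2-Eb1 was at 0.0584.

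Without mutant 3 and without the block, the members' median at P5 was 0.31 with 7 of 7 above 0, and 0 of the 7 and 0 of 17165 genes passed. In that lung the T cell genes Lck and Cd4 were at 5093 and 2650, against 88.2 to 130.1 and 46.5 to 166 in the other 5, and Ptprc was at 5432 against 729 to 1395 (Lck chosen after its values were seen, as was Cd4). T and NK cell markers summed to 17743 there against 481 to 888, with 0 of 11 called. H2-Eb2 was at 102 there against 3.65 to 12.1, and H2-Oa, the alpha chain of the DM inhibitor, at 109.9 against 4.70 to 26.2. The part of the thymus genes in the class II values of mutant 3 was not tested.

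Of the 20 further pathway genes at P5, 1 rose. Ctss rose from 1050, 956 and 829 normalized counts to 2540, 2302 and 2929 (log2 difference 1.45, SE 0.15, limma adjusted p = 0.0141), a larger difference than that of any of the 7 members. Ifi30, encoding a thiol reductase of endosomes, was at 1344, 1339 and 1268 against 2097, 2169 and 1922 (0.65, adjusted p = 0.0615; chosen after its values were seen). Without mutant 3, 0 of the 20 passed, with a median log2 difference of 0.20.

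Among the cell type markers at P5, neutrophil genes rose for 4 of 9 (median 1.91). Their sums were 3877 to 5377 in controls and 11430 to 26216 in mutants. Without mutant 3, 0 of 9 passed, although the median was 1.72. Over all genes tested at P5, 13.2% had every mutant above every control, an order called separated higher below. Macrophage and monocyte markers had 10 of 15 genes separated higher and 0 called (median 0.58, and 0.68 without mutant 3; sums 5992 to 6746 against 10122 to 10769). Pan-leukocyte markers had 6 of 7 separated higher and 0 called, with a median of 1.18 that was 0.61 without mutant 3, and the T and NK cell median was 1.72 and 0.26 without it. Itgax was at 208, 158 and 138 against 435, 307 and 472 (log2 difference 1.26, limma adjusted p = 0.0652), and Adgre1, the macrophage antigen F4/80, at 255, 312 and 246 against 393, 478 and 379 (0.62, adjusted p = 0.132). B cell genes overlapped, with Cd79a at 224, 94.0 and 262 against 230.0, 101 and 122, and 0 of 9 passed (median -0.19, and -0.12 without mutant 3). Dendritic cell markers had 10 of 12 genes above 0 and 0 called (median 0.69, and 0.44 over 11 genes without mutant 3), while their sum was lower in mutants at 4805 to 6153 against 6944 to 7168. Alveolar type II markers had 11 of 12 genes above 0, 5 of them separated higher, and 0 called (median 0.50, and 0.74 without mutant 3). Endothelial markers had 9 of 9 genes below 0 and 0 called (median -0.49, and -0.36 without mutant 3). Their sums were 90086 to 95978 in controls and 53241 to 83288 in mutants. The class I genes (18 tested, median 0.43), interferon-gamma targets (21, median 0.39), alveolar type I (9, median 0.20) and erythroid (4, median -0.52) lists also gave 0 calls, with medians of 0.51, 0.42, 0.35 and -0.38 without mutant 3. The H2-Ab1 to Ptprc ratio was 0.875 to 1.44 in controls and 0.614 to 0.932 in mutants, which overlap. The part of these marker differences in the class II values was not tested.

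The Vangl2 differences at P2 and P5 lay on opposite sides of 0 for all 7 genes. The P5 minus P2 difference ranged from 0.87 for H2-DMb1 to 1.84 for H2-Ab1 on the log2 scale. For H2-DMa it was 1.25 (SE 0.26), for H2-Aa 1.66 (SE 0.43) and for Ciita 1.64 (SE 0.64). Each gene had an unadjusted limma p between 0.000466 and 0.0247, and an adjusted p of 0.577; of 17064 genes tested, 0 passed this test (0%), and 1441 had an unadjusted p under 0.05. The difference between ages was therefore not shown at the threshold used. The tables were normalized separately, with their own controls, so only these differences of within-table contrasts were tested.

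**Figure D3:**
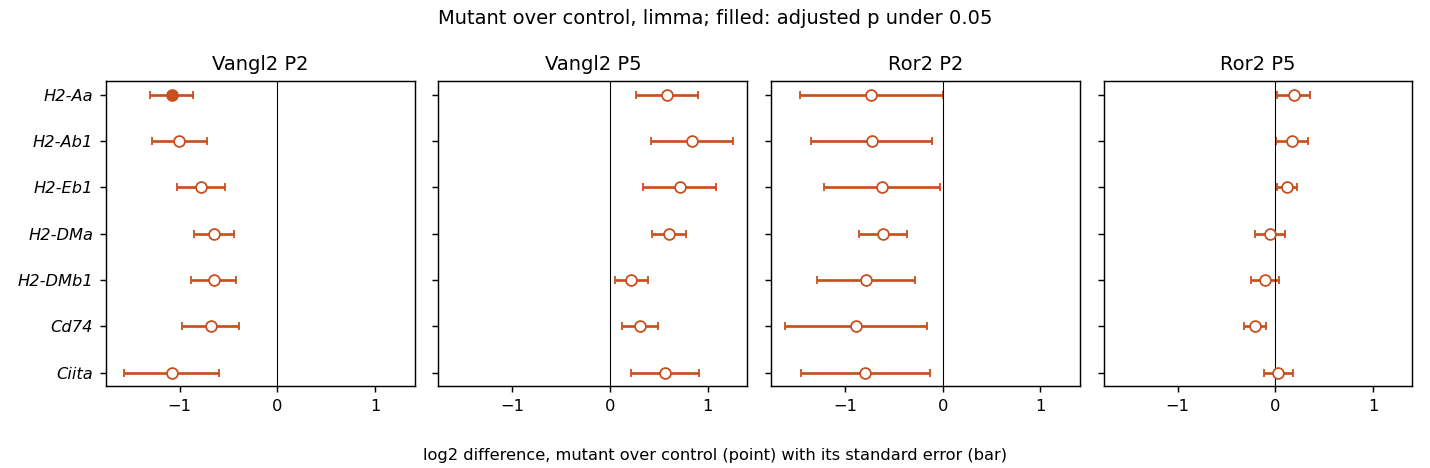
Log2 difference, mutant over control, of each class II gene in the 4 comparisons, with the standard error from limma. The Vangl2 values lie below 0 at P2 (-1.08 to -0.65) and above 0 at P5 (0.22 to 0.84), those of Ror2 at P2 lie below 0 with wide errors (SE up to 0.73), and those of Ror2 at P5 lie near 0 (-0.21 to 0.19).

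Loss of Ror2 at P2 gave class II values that differed more among lungs of the same group than between groups. None of the 7 genes passed; 0 of 17537 genes passed in this comparison (0%) under limma, with 3379 at an unadjusted p under 0.05, against 794 by DESeq2 and 0 by edgeR. H2-Aa was at 1007, 680.1 and 1694 in controls and at 902, 1496 and 187 in mutants (log2 difference -0.73, SE 0.73, limma adjusted p = 0.591). H2-Ab1 was at 735, 592 and 1468 against 699, 1039 and 193 (-0.73, SE 0.62, adjusted p = 0.528), and H2-Eb1 at 369, 321 and 698 against 421, 503 and 106 (-0.62, SE 0.59, adjusted p = 0.572). Control 3 was the highest of the 6 lungs and mutant 3 the lowest for all 7 genes.

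Of the 7 members, 1 (H2-DMa) had all mutants below all controls, which is close to the 12.2% of all genes in that order. H2-DMa was at 202, 225 and 306 in controls and at 187, 182 and 114 in mutants (log2 difference -0.61, SE 0.25, limma adjusted p = 0.248). H2-DMb1 was at 252, 191 and 347 against 202, 249 and 64.1 (-0.78, SE 0.50, adjusted p = 0.403). Cd74 was at 3541, 2843 and 5578 against 3052, 4935 and 587 (-0.89, SE 0.73, adjusted p = 0.509), and Ciita at 92.8, 66.2 and 124 against 72.1, 116 and 16.8 (-0.79, SE 0.66, adjusted p = 0.519). These overlapped, and mutant 2 was above controls 1 and 2 for Cd74 and Ciita.

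The lower means in the P2 Ror2 mutants rested largely on mutant 3. Without it the members' median was 0.0006, with 3 of 7 genes below 0, and the values were 0.14 for H2-Aa, -0.02 for H2-Ab1 and -0.38 for H2-DMa. Without control 3 instead, the median was -0.44 with 7 of 7 below 0. In mutant 3, Ptprc was at 621 against 643 to 1744 in the other 5 lungs, and Cd79a at 75.6 against 76.3 to 148, each just below the others. Its Ms4a1 of 51.5 was just below the 53.6 to 130.4 of the others, and its Itgax of 184 lay within their 176 to 318. In contrast its H2-Aa count was 187 against 680.1 to 1694. Its H2-Ab1 to Ptprc ratio was 0.311, against 0.719 to 1.15 in the other 5. Control 3 had Ptprc at 1744 and pan-leukocyte markers at a sum of 15702 against 8577 to 10098.

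No gene in any of the other lists passed in the P2 Ror2 comparison. The further class II pathway genes (20 tested) had a median of -0.09, class I genes (18) of -0.17 and interferon-gamma targets (21) of -0.04. B cell (9), dendritic cell (12), macrophage and monocyte (15), T and NK cell (11), neutrophil (9) and pan-leukocyte (7) markers had medians of -0.02, -0.19, -0.44, -0.68, -0.37 and -0.43. Without control 3 these were 0.15, -0.19, -0.16, -0.40, 0.24 and -0.01, so the neutrophil and B cell medians turned, and without mutant 3 they were 0.06, -0.11, -0.39, -0.34, -0.52 and -0.32. The interferon-gamma median also turned, to 0.05 without control 3 and 0.10 without mutant 3. Rfx5 was at 657, 641 and 578 in controls and at 516, 650.4 and 399 in mutants, mutant 3 being the lowest.

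At P5 the Ror2 mutants and their controls had class II values within a narrow range of each other. None of the 7 genes passed, where 21 of 17175 genes did (0.122%), and none of the 7 was separated between groups, where 14.3% of all genes had every mutant below and 15.6% every mutant above the controls. The median log2 difference was 0.03, with 3 of 7 genes below 0.

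H2-Aa was at 2428, 1853 and 1548 in controls and at 1963, 2087 and 2507 in mutants (log2 difference 0.19, SE 0.17, limma adjusted p = 0.563). H2-Ab1 was at 1816, 1464 and 1166 against 1473, 1580.1 and 1886 (0.17, SE 0.16, adjusted p = 0.599), and H2-Eb1 at 908, 931 and 747 against 928, 869 and 998 (0.12, SE 0.10, adjusted p = 0.564). The chain genes were thus spread over the same range in both groups, control 3 being the lowest and mutant 3 the highest for each.

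H2-DMa was at 332, 302 and 282 in controls and at 291, 242 and 358 in mutants (log2 difference -0.06, SE 0.16, limma adjusted p = 0.871). H2-DMb1 was at 346, 254 and 287 against 288, 244 and 290.1 (-0.10, SE 0.14, adjusted p = 0.725). Cd74 was at 7356, 6435 and 5676 against 5289, 5257 and 6290 (-0.21, SE 0.11, adjusted p = 0.368), and 2 of its 3 mutants were below all controls. Ciita was the most even, at 118, 104 and 100.2 against 111, 109 and 109.7 (0.03, SE 0.15, adjusted p = 0.93).

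No listed gene passed beside them. The medians were -0.01 for the further class II pathway genes (20 tested), 0.15 for class I genes (18) and 0.15 for interferon-gamma targets (20). They were 0.18 for B cell (9), 0.14 for dendritic cell (12), 0.06 for macrophage and monocyte (15), 0.54 for neutrophil (9) and 0.06 for pan-leukocyte (7) markers. H2-K1 had every mutant above every control, at 1672, 2654 and 1897 against 3383, 3128 and 2895 (log2 difference 0.62, limma adjusted p = 0.143).

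Between genotypes and between the Ror2 ages the differences of contrasts did not pass either. The Ror2 difference at P5 minus P2 was 0.55 to 0.92 over the 7 genes (limma adjusted p = 0.594 to 0.808; 0 of 16986 genes, 0%; 1614 at an unadjusted p under 0.05). Vangl2 minus Ror2 at P2 was -0.35 to 0.20 (adjusted p = 0.984 to 0.997; 0 of 17133 genes, 0%; 788 at an unadjusted p under 0.05). At P5 it was 0.32 to 0.67 (adjusted p = 0.936 to 0.998; 2 of 16883 genes, 0.0118%), with H2-DMa at 0.65 (SE 0.23). The SE of the P2 genotype difference reached 0.90 for Ciita, so values of this size would lie within 1 SE of 0.

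**Figure D4:**
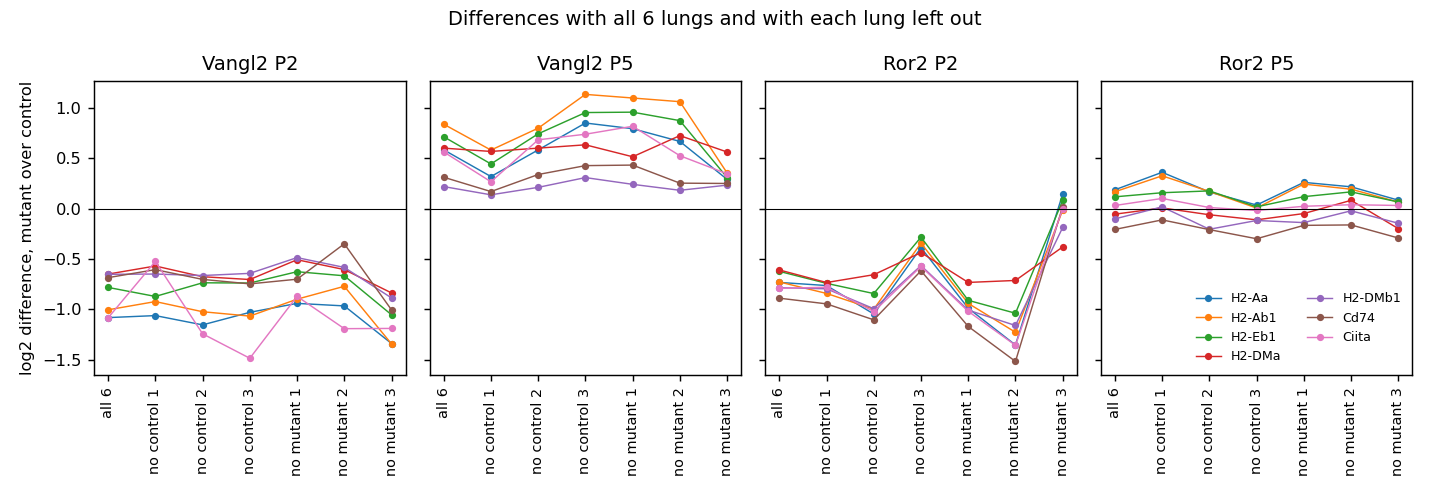
Log2 difference, mutant over control, of each of the 7 class II genes (1 line a gene) in the 4 comparisons, for all lungs and for each set of 5 lungs. Without mutant 3 the P2 Ror2 values rise to between -0.38 and 0.14 and the P5 Vangl2 values draw together around a median of 0.31.

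Because control lungs of both ages were sequenced, class II levels of the controls can be set side by side, although the tables were normalized separately and no test was made. H2-Aa was at 574 to 1694 normalized counts in the 6 P2 controls and at 828 to 2428 in the 6 P5 controls. Cd74 was at 2410 to 5578 and at 4225 to 7356. H2-DMa was at 202 to 325 and at 234 to 332, and thus over nearly the same range at both ages.

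The members kept near-fixed ratios to each other across lungs in some pairs only. The H2-Aa to H2-Ab1 ratio, of the I-A alpha and beta chains, was 0.807 to 1.44 over the 24 lungs with a median of 1.27, and its lowest value was in P5 Vangl2 mutant 3. The Cd74 to H2-Ab1 ratio spanned 2.09 to 7.48. In the P2 Vangl2 comparison it was 5.04 to 5.07 in controls and 5.49 to 7.48 in mutants (log2 difference 0.32, exact permutation p = 0.1). In the P5 Ror2 comparison it was 4.05 to 4.87 against 3.33 to 3.59 (-0.37, exact permutation p = 0.1). In these 2 comparisons the groups did not overlap, in opposite directions, and 0.1 is the smallest p that 3 against 3 allow. The H2-DMa to H2-DMb1 ratio was 0.73 to 1.79, and in the P2 Vangl2 comparison the groups shared a range, 1.40 to 1.70 in controls and 1.43 to 1.58 in mutants. The H2-DMa to H2-Ab1 ratio varied the most, from 0.117 to 0.932.

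**Figure D5:**
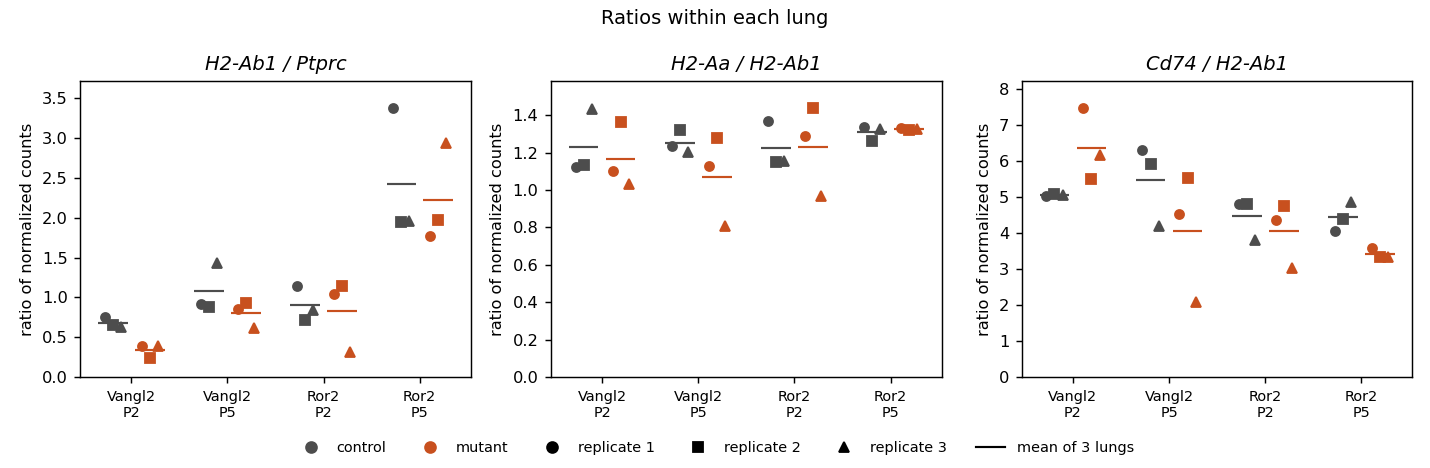
Ratios of normalized counts within each lung (linear axes from 0), by comparison and group, with a line at each group mean. H2-Aa to H2-Ab1 stays within 0.807 to 1.44 in all 24 lungs, while H2-Ab1 to Ptprc spans 0.233 to 3.38 and has its lowest values in the P2 Vangl2 mutants and in P2 Ror2 mutant 3.

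Deviations of each lung from its group mean, on the log2 scale, were used to ask which genes vary between lungs as the class II chains do. Among the members, the Pearson r over the 21 pairs was 0.61 to 0.97 with a median of 0.82, and 0.44 to 0.95 with a median of 0.67 without the 2 lungs farthest from the median, P2 Ror2 mutants 3 and 2. With the mean deviation of H2-Aa, H2-Ab1 and H2-Eb1, the r was 0.90 for Cd74, 0.88 for H2-DMb1, 0.79 for Ciita and 0.73 for H2-DMa. Without the 2 lungs these were 0.80, 0.73, 0.58 and 0.64. Among 14576 genes ranked, the highest were Bri3bp (0.83), Sh3kbp1 (0.81), Gpr132 (0.81), Mthfd2 (0.80), Cd86 (0.78), Bank1 (0.78), Vwa1 (0.77) and Plbd1 (0.76), over 23 or 24 lungs. Cd86 encodes a costimulatory ligand of antigen-presenting cells and Bank1 a B cell scaffold protein. Without the 2 farthest lungs their values were 0.64, 0.66, 0.79, 0.55, 0.70, 0.65, 0.64 and 0.69, so Gpr132 moved least and Mthfd2 most. The ranking itself was not stable: without those lungs the first 8 were Arhgap15 (0.84), Cd52 (0.83), Tmem216 (0.81), Ipcef1 (0.79), Gpr132 (0.79), Laptm5 (0.78), Arhgap30 (0.78) and Prlr (0.77), of which only Gpr132 was among the first 8 with all lungs. The r was 0.63 for Ptprc, 0.57 for Rfx5, 0.43 for H2-K1, 0.24 for B2m and for Irf1, 0.15 for Itgax and -0.19 for Sftpc. Without the 2 lungs these were 0.75, 0.29, 0.56, 0.23, 0.35, -0.10 and -0.20. The Rfx5 value thus rested largely on those lungs. These are descriptions over lungs that share tables and size factors.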

How the data were processed

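RNA of left lung lobes was extracted with TRIzol and RNeasy columns and sequenced on Illumina HiSeq instruments, per the study's methods. The submitters' processing notes name the mm10 build and DESeq2; aligner and counter are not given in the sources used here. The deposited values are normalized counts (unit: signal), which the authors made from read counts per gene by scaling each lung with the size factor of its own table. Columns of the authors' own fold changes and p-values hold their comparisons and were not used.

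Of 23420 rows per table, 4 with a repeated name were dropped. Dividing by the smallest step gave whole reads for 100% of values (within 0.02), a check that says little in the 3 lungs whose step lies close to 1. Log2(normalized count + 1) was fitted with limma 3.58.1 (R 4.3.3, trend on) on each table, over genes that reached a normalized count of 1 in 3 or more lungs; p-values were adjusted after Benjamini and Hochberg across every gene tested, with a threshold of 0.05. The size factors centre the 4 tables, the median difference over all genes being near 0. Fold changes on this scale understate those of low genes. Differences between comparisons were fitted by limma over 4 groups. Alternatives included edgeR 4.0.16 and DESeq2 1.42.0 on the recovered reads; edgeR called 641, 69, 0 and 24 genes in the Vangl2 P2, Vangl2 P5, Ror2 P2 and Ror2 P5 comparisons. The limma scripts were tested on simulated data. Exact permutation tests went over every split of a table's lungs into 3 against 3.

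The 7 genes and the gene lists were chosen with earlier results of these data known. Named were the 7 members, a fixed set of marker and regulator genes, up to 4 called genes per list and comparison (where none passed, up to 2 of the highest mean), and the 8 genes most like the class II chains; others are said to be chosen after their values were seen. A gene of the fixed set is not reported here. The thymus list, and the lungs left out of the list counts, were chosen after seeing the data. Same-numbered lungs of the P5 Vangl2 table deviated together (r 0.49, 0.48 and 0.29), and this pairing comes from the data, since the labels tie the numbers to nothing. No 2 lungs had identical values. Promoter windows and gene positions are RefSeq's, in GRCm38.p6; exon lengths are from GENCODE.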

Additional observations from a re-analysis of the deposited data

Results flagged for a closer look

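H2-DMa, the alpha chain of the peptide-exchange chaperone, had all 3 Vangl2 mutant lungs below all 3 controls at P2 and all 3 above at P5. The P5 minus P2 difference was 1.25 on the log2 scale (SE 0.26). The test of this difference itself did not pass (limma adjusted p = 0.577), and the opposite order of the lungs is what singled the gene out. In the P2 Vangl2 table the order of H2-DMa was shared by 14.9% of all genes, and in the P5 table by 13.2%.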

How the results depend on the processing

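With 3 lungs a group, single lungs decided several counts, and the cause of each shift between settings was not tested. In the P2 Vangl2 comparison, 1 member was called; the count was 0 without limma's trend, 3 by DESeq2 and 0 to 6 with a lung left out, and all genes called were 1 without trend, 2001 by DESeq2 and 1 to 2333 with a lung left out, against 626. H2-Aa lost its call in 6 of 15 alternatives (adjusted p 0.000565 to 0.168), with a log2 difference of -1.34 to -0.94 over all of them. At P5 Vangl2, with 0 members called, the replicate block gave 3 and DESeq2 gave 1 (H2-DMa); genes called were 193 with equal totals, 4 without trend, 1558 with the block, 1277 by DESeq2 and 0 to 54 with a lung left out, against 98. At P2 Ror2, genes called were 2 without trend, 1 with the block, 794 by DESeq2 and 0 to 859 with a lung left out, against 0. At P5 Ror2 they were 35 with equal totals, 11 without trend, 1 with the block, 1 without treating the incomplete lung as missing, 688 by DESeq2 and 0 to 802 with a lung left out, against 21. In neither Ror2 comparison was a member called under any setting.

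Directions turned only when a lung was left out. At P2 Ror2, H2-Aa ranged from -1.35 to 0.14, H2-Eb1 from -1.04 to 0.080, Cd74 from -1.52 to 0.019 and Ciita from -1.36 to 0.00058. At P5 Ror2, H2-DMa ranged from -0.20 to 0.082, H2-DMb1 from -0.20 to 0.017 and Ciita from -0.019 to 0.10. The Ror2 P5 minus P2 difference of Cd74 ranged from -0.23 to 1.31. Vangl2 minus Ror2 at P2 ranged from -1.23 to 0.27 for H2-Aa, -0.99 to 0.22 for H2-Ab1, -0.86 to 0.26 for H2-Eb1, -0.27 to 0.10 for H2-DMa, -0.46 to 0.51 for H2-DMb1, -0.70 to 0.83 for Cd74 and -1.08 to 0.27 for Ciita. With a lung left out, limma's spread was pooled over both groups. In the 3 other tables the r of same-numbered lungs was -0.13 to 0.31, and there the block changed no member's call. The highest of these, 0.31 for lungs 2 of the P2 Ror2 table, was above the 0.29 of lungs 3 of the P5 Vangl2 table.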

Other observations

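The following values were picked after they were seen. In the P2 Vangl2 comparison, mutant 3, the mutant with the class II values nearest to those of the controls, had Cd83, a surface marker of mature dendritic cells, at 1808 normalized counts against 137 to 244 in the other 5 lungs. Irf1, an interferon-induced transcription factor, was at 3502 in the same lung against 974 to 2755 in the others. In control 1 of that table, 3 further interferon-gamma targets were high beside Ciita: Gbp4 at 6330.0 against 373 to 1048, Tap1 at 2643 against 412 to 637, and Nlrc5, the class I counterpart of Ciita, at 804 against 16.3 to 61.6. In the P5 Ror2 comparison Nlrc5 was at 33.1 and 31.8 in the 2 controls with a value and at 106, 67.9 and 78.2 in mutants (log2 difference 1.32, limma adjusted p = 0.12), beside the even Ciita values. Clec9a, encoding a receptor of cross-presenting dendritic cells, was at 746, 509 and 538 in P2 Ror2 controls and at 1271, 684 and 1369 in mutants, 3 of 3 of the mutants being above 2 of the 3 controls.

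Xist, the RNA of the inactive X chromosome, was high in some lungs and low in others (5.22 to 31655 normalized counts). It was high in 1 of 3 P2 Vangl2 controls and 2 of 3 mutants, in 3 of 3 controls and 2 of 3 mutants at P5, in 1 of 3 lungs of each P2 Ror2 group, and in 1 of the 2 P5 Ror2 controls with a value and 0 of 3 mutants. Sex was therefore not balanced over the groups, and its part in the class II values was not tested.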
